A study of Mus musculus with 2 samples.

Results

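The 42 genes described here encode mTORC1, the amino acid-responsive growth kinase complex, and the proteins that report amino acid supply to it. They were chosen by gene symbol and comprise the SAMTOR, sestrin and CASTOR sensors, the GATOR1, GATOR2 and KICSTOR complexes, the Rag-Ragulator platform, folliculin, the TSC complex, mTORC1 itself and its best known substrates. All 42 were found among the 54532 gene identifiers of the count table, and all 42 had a mean of at least 10 counts, the minimum used for reading a difference. Bulk RNA-seq was done on CD8+ T cells of wild-type mouse spleen, cultured for 8 h in RPMI 1640 without methionine or in complete RPMI 1640. The labels call the animals ND without spelling it out. The sources used here do not give the strain, age or number of animals, any activating stimulus, or whether the cultures share animals. There was 1 library per medium, so no difference has a replicate check, no p-value is given, and a library difference cannot be told apart from a difference between the media.

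mTORC1 promotes protein, lipid and nucleotide synthesis when nutrients and growth signals are present. Amino acids act through the Rag GTPases on the lysosome, which recruit the complex. GATOR1 switches the Rags off, GATOR2 opposes GATOR1, and the sensors act on these complexes. SAMTOR, encoded by Bmt2, binds GATOR1 and KICSTOR when S-adenosylmethionine, the methyl donor made from methionine, is scarce. Among the sestrins, Sestrin2 is the best characterised leucine sensor, and CASTOR1 answers to arginine. Growth factor signals act through the TSC complex, which restrains the small GTPase Rheb, the direct activator of mTORC1. In T cells this pathway links nutrient supply to growth after antigen. Most of its regulation acts on proteins, which RNA counts do not measure.

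The methionine-free library held 19647681 counts and the complete-medium library 14646527. Levels are given in CPM (counts per 1000000 counts after TMM scaling), and a fold is the ratio of scaled counts, followed by its 95% interval for counting error. The 7 T cell and CD8 markers examined were at 154 to 527 CPM in the methionine-free library and 146 to 664 CPM in the complete-medium library. The 5 B cell markers summed to 6.89 CPM without methionine and 11.3 CPM in complete medium, and the 6 myeloid markers to 65.0 and 54.9 CPM, most of it Cst3. Of the natural killer markers, Klrb1c was at 0 in both libraries, Ncr1 at 0 without methionine and at 3 counts in complete medium, while Nkg7, which CD8+ T cells also express, was at 156 and 128 CPM. The 2 CD4 T cell markers summed to 4.54 and 4.15 CPM, most of it Foxp3, with Cd4 at 11 and 9 counts. The 3 erythroid markers summed to 1.84 and 1.43 CPM. All 14 proliferation genes examined were lower without methionine by 1.5-fold or more, summing to 1122 CPM against 4395 CPM in complete medium. The part of this difference in the values below was not tested. In bulk RNA, fewer cells of a kind and less RNA per cell cannot be told apart.

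Most genes of the pathway differed little between the libraries. Of the 42 genes, 37 lay within 1.5-fold, 3 were higher without methionine by 1.5-fold or more (Deptor, Tsc1 and Castor2) and 2 lower by that much (Castor1 and Ddit4). Of the 13041 genes that met the count minimum, 15.7% were higher and 18.0% lower by 1.5-fold or more. The members' shares of 7.14% and 4.76% were thus both below those of all genes. Most members are well counted, and among the 9522 genes averaging 100 counts or more the shares were 12.2% higher and 13.7% lower. At 2-fold, 1 member was higher and 1 lower, against 5.80% and 9.29% of all genes. The median log2 difference of the members was 0.14, against 0.04 over all genes, and the median size of the difference, regardless of sign, was 0.32 against 0.40. Over members and genes averaging 100 counts or more, the medians were 0.09 and 0.05. The counting interval lay above 1 for 19 members and below 1 for 10, so it excluded 1 for 29 of the 42, against 35.3%, 31.5% and 66.8% of all genes. The whole set took 0.252% of the methionine-free counts and 0.261% of the complete-medium counts.

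**Figure D1:**
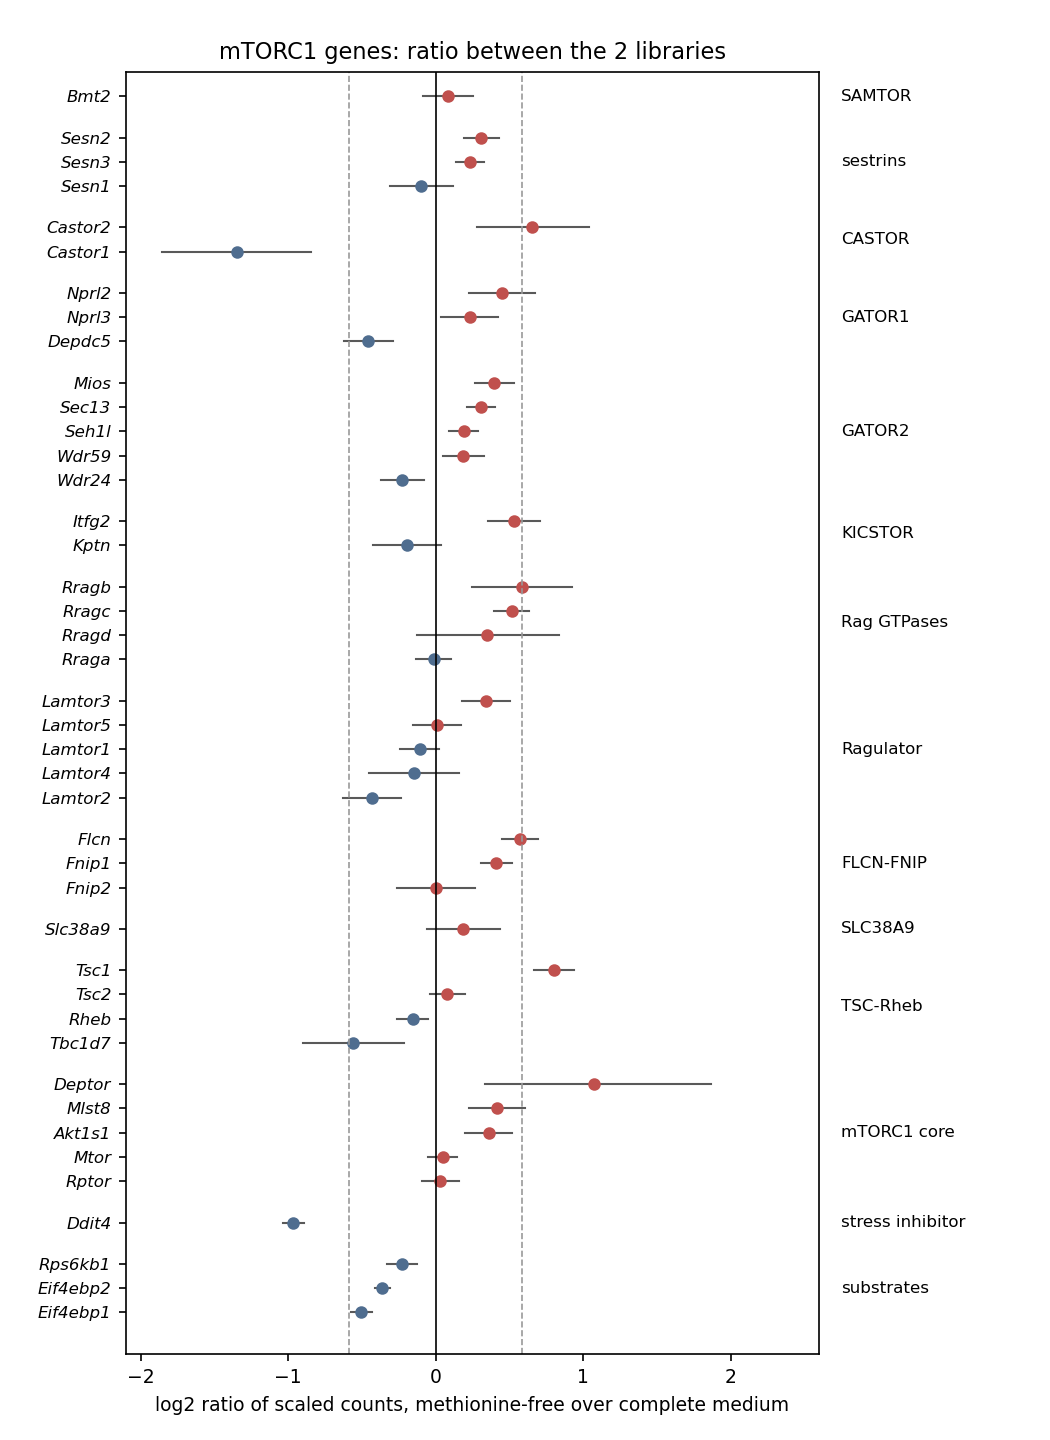
Each point is the log2 ratio of scaled counts of a member, methionine-free over complete medium, with its 95% counting interval as a line, grouped by role (names at the right); dashed lines mark 1.5-fold either way and red and blue mark ratios above and below 1. Of the 42 genes, 37 lie between the dashed lines, and Castor1 and Ddit4 lie farthest to the left.

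The 5 genes past 1.5-fold all encode proteins that restrain mTORC1. A division of the members by role, made after their values were seen, put 17 genes among the restraining ones (SAMTOR, sestrins, CASTOR, GATOR1, KICSTOR, the TSC subunits, REDD1, DEPTOR and PRAS40) and 22 among those that form or promote mTORC1. Of the 17, 3 were past 1.5-fold upward and 2 downward, or 17.6% and 11.8%, near the 15.7% and 18.0% of all genes. Of the 22, none was past 1.5-fold in either direction, and their log2 differences ran between -0.43 and 0.58. Rragb and Flcn, at ratios of 1.499 and 1.49, lay just under the line. Of the 5 genes past it, Deptor, Castor1 and Castor2 averaged only 40, 75.5 and 135 counts. The contrast between the groups thus depends on the cutoff and on genes with few counts.

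The gene of SAMTOR, which senses S-adenosylmethionine rather than methionine itself, was at nearly the same level in both libraries. Bmt2 (ENSMUSG00000042742, chromosome 6, 13625673 to 13677966, minus strand of GRCm38) had 685 counts without methionine and 484 in complete medium, or 35.0 and 33.0 CPM. The ratio was 1.06 (0.943 to 1.19), an interval that holds 1 and lies wholly inside 1.5-fold either way.

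The sestrin genes differed modestly. Sesn2, which encodes the best characterised leucine sensor and is a known target of the stress factor ATF4, had 1531 counts without methionine and 926 in complete medium, or 78.1 and 63.1 CPM. This was 1.24-fold higher (1.14 to 1.35). Sesn3, the sestrin gene with the most counts here and a known FOXO target, was at 120 and 102 CPM, and Sesn1, a known p53 target, at 20.6 and 22.0 CPM. The interval of the Sesn1 ratio held 1. Atf4 itself was at 796 CPM without methionine and 448 CPM in complete medium, and Ddit3, which encodes the ATF4-induced factor CHOP, at 131 and 22.6 CPM, so Sesn2 differed less than either.

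The CASTOR genes went opposite ways. Castor1, which encodes the cytosolic arginine sensor (ENSMUSG00000020424, chromosome 11, 4218225 to 4222409, plus strand), had 52 counts without methionine and 99 in complete medium, or 2.65 and 6.74 CPM, and was 2.54-fold lower (1.80 to 3.63). Castor2, which encodes its dimerisation partner and homologue (ENSMUSG00000015944, chromosome 5, 134099711 to 134144343, plus strand), had 183 counts without methionine and 87 in complete medium, or 9.34 and 5.92 CPM, and was 1.58-fold higher (1.21 to 2.06). Castor1 thus held 22.1% of the counts of the pair without methionine (17.0 to 28.0, exact binomial interval) and 53.2% in complete medium (45.8 to 60.6). Both are among the least abundant members, and these shares rest on 235 and 186 counts.

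GATOR1, the complex that switches RagA and RagB off, was uneven. Depdc5 had 589 counts without methionine and 606 in complete medium, or 30.1 and 41.3 CPM, and was 1.37-fold lower (1.22 to 1.54). Nprl2, at 23.4 and 17.2 CPM, was 1.37-fold higher (1.17 to 1.60). Nprl3 was at 29.5 and 25.2 CPM, but 17.7% of its exon bases lie opposite Mpg, which had 138 and 125 counts, and the sources used here do not say whether reads were counted by strand. In the GATOR2 complex, 4 of 5 genes had intervals above 1 and Wdr24 had one below 1. Of all genes, 35.3% had intervals above 1 and 31.5% below 1. Mios had 1293 counts without methionine and 735 in complete medium, or 66.0 and 50.0 CPM, the largest difference of the complex at 1.32-fold higher (1.20 to 1.45). Sec13 and Seh1l, whose proteins also serve the nuclear pore, were at 127 and 103 CPM and at 111 and 97.0 CPM. Wdr59 was at 53.0 and 46.5 CPM, and Wdr24 at 42.3 and 49.5 CPM.

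KICSTOR anchors GATOR1 to the lysosome. Itfg2 had 778 counts without methionine and 403 in complete medium, or 39.7 and 27.4 CPM, and was 1.45-fold higher (1.28 to 1.64). Kptn was at 17.6 and 20.2 CPM, with an interval that held 1.

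The Rag GTPases act as pairs of RagA or RagB with RagC or RagD. Rragb had 220 counts without methionine and 110 in complete medium, or 11.2 and 7.49 CPM, and its ratio of 1.499 (1.19 to 1.90) lay just under the 1.5-fold line. Rraga, the more abundant of that pair, was at 69.1 and 69.7 CPM, so Rragb held 14.0% of the pair's counts without methionine (12.3 to 15.8) and 9.70% in complete medium (8.04 to 11.6). Rragc was at 88.1 and 61.7 CPM, 1.43-fold higher (1.32 to 1.55), and Rragd at 5.21 and 4.09 CPM. Ragulator, the scaffold that holds the Rags on the lysosome, had no member past 1.5-fold. Lamtor2 had 426 counts without methionine and 431 in complete medium, or 21.7 and 29.3 CPM, and was 1.35-fold lower (1.18 to 1.55). Lamtor3 was at 42.3 and 33.4 CPM, while the intervals of Lamtor1, Lamtor4 and Lamtor5 held 1. Lamtor1 overlaps Lrrc51, with 48 and 16 counts, on the opposite strand.

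Folliculin with its FNIP partners acts on RagC and RagD, and Flcn, Fnip1, Fnip2, Rragc and Rragd are known targets of the lysosomal factors TFEB and TFE3. All 5 log2 differences were above 0, against 52.4% of all genes, but that of Fnip2 rounded to 0.00 and was below 0 under the 3 other scalings tried. The median was 0.41, and 3 of the 5 had intervals above 1, against 35.3% of all genes. The 5 were listed with earlier results of these libraries known, so they give no independent evidence of direction. Flcn had 1691 counts without methionine and 852 in complete medium, or 86.3 and 58.0 CPM, and was 1.49-fold higher (1.37 to 1.62). Fnip1 was at 109 and 82.1 CPM, 1.33-fold higher (1.24 to 1.43), and Fnip2 at 14.2 CPM in both libraries. None of the 5 was past 1.5-fold. The factors themselves are not among the 42. Tfe3 was at 58.0 CPM without methionine and 34.5 CPM in complete medium, 1.68-fold higher (1.51 to 1.87), while the less abundant Tfeb was at 4.54 and 11.3 CPM, 2.49-fold lower (1.91 to 3.26). Mitf, the third factor of that family, had 35 and 5 counts. Slc38a9, which encodes a lysosomal arginine sensor, had 343 counts without methionine and 226 in complete medium, or 17.5 and 15.4 CPM, with an interval that held 1.

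Members of the TFEB family, USF and MYC factors bind the hexamer CACGTG, so the RefSeq promoters of the members (GRCm38.p6, the 250 bases before the annotated start) were searched for it, the same on both strands. Of the 42 genes, 37 had a promoter entry, 38 entries in all, and 7 entries (18.4%) held the hexamer, against 8.38% of the entries of genes that met the count minimum and 6.02% of all 32851. The windows of 60 bases that hold these matches are shown 5′ to 3′ on the gene's strand, with the hexamer in capitals.
Rragc (chr4:123917294-123917353, plus strand): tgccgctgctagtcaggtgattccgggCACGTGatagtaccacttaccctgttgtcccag
Fnip1 (chr11:54438077-54438136, plus strand): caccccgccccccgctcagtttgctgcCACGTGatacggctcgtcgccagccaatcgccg
Rragb, farther match (chrX:153139804-153139863, plus strand): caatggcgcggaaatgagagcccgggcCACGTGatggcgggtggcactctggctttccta
Rragb, nearer match (chrX:153139895-153139954, plus strand): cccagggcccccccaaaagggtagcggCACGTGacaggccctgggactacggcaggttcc
Lamtor4 (chr5:138255343-138255402, plus strand): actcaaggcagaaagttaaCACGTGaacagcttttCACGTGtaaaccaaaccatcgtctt
Lamtor1 (chr7:101905742-101905801, plus strand): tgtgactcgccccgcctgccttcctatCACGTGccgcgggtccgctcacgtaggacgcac
Rheb (chr5:24842425-24842484, minus strand): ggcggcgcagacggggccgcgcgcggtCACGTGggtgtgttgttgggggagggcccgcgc
Tbc1d7 (chr13:43171522-43171581, minus strand): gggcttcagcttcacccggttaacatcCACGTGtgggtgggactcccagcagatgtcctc
Rragc, Fnip1 and Rragb had ratios of 1.43, 1.33 and 1.499. Rheb and Tbc1d7, with the same hexamer, had intervals below 1. Lamtor1 and Lamtor4 had ratios below 1 with intervals that held 1. The members that hold the hexamer thus did not differ in one direction. The longer form TCACGTGA, which contains the hexamer, was in none of the 38 entries, against 1.60% of the entries of genes that met the count minimum. The ATF4 letters TGATGNAA, searched on both strands, were in 1 entry, that of Lamtor4, and the FOXO letters GTAAACA in none, against 2.02% and 2.17%. A match is a description of these letters in this window and not a binding site.

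**Figure D2:**
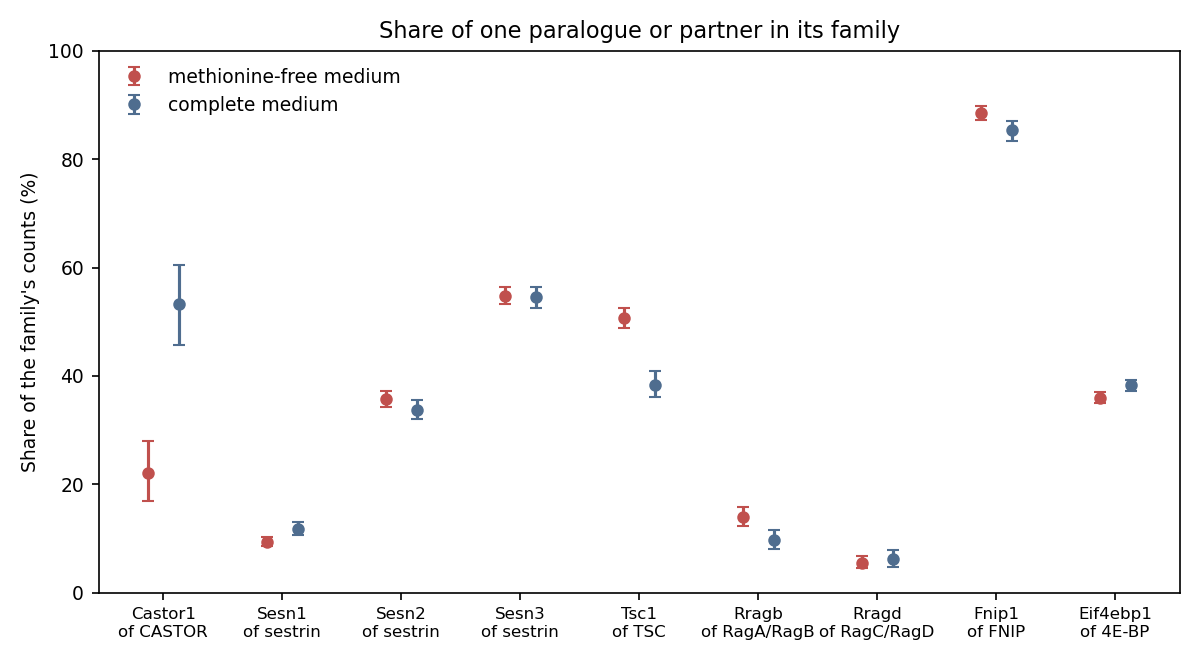
Each point is the share of the counts of a family or pair that belongs to the named gene, in percent, methionine-free at the left and complete medium at the right of each pair of points, with exact 95% binomial intervals for counting error. Castor1 and Tsc1 show the widest gaps, at 22.1% against 53.2% and at 50.7% against 38.4%, while the shares of Sesn3 lie at 54.8% and 54.5%.

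Among the subunits of the TSC complex, the scaffold gene was higher and the third subunit lower. Tsc1 (ENSMUSG00000026812, chromosome 2, 28641228 to 28691167, plus strand) had 1448 counts without methionine and 623 in complete medium, or 73.9 and 42.4 CPM, and was 1.74-fold higher (1.58 to 1.92). Tsc2, which encodes the subunit that switches Rheb off, was at 71.9 and 68.0 CPM, so Tsc1 held 50.7% of the counts of the pair without methionine (48.8 to 52.5) and 38.4% in complete medium (36.0 to 40.8). Tsc2 shares 7.20% of its exon bases with Pkd1 on the opposite strand, which had 1732 and 1242 counts. Tbc1d7 had 136 counts without methionine and 150 in complete medium, and was 1.47-fold lower (1.16 to 1.87). Rheb was at 85.4 and 95.2 CPM, 1.11-fold lower (1.04 to 1.20).

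The genes of the kinase and its defining partner were nearly level. Mtor had 2045 counts without methionine and 1484 in complete medium, or 104 and 101 CPM, with a ratio of 1.03 (0.966 to 1.11). Rptor, which encodes the substrate-recruiting subunit Raptor, had 1287 and 943 counts, or 65.7 and 64.2 CPM, with a ratio of 1.02 (0.940 to 1.11). Akt1s1, which encodes the inhibitory subunit PRAS40, was at 44.1 and 34.4 CPM. It shares 2.90% of its exon bases with Tbc1d17 on the opposite strand, which had 1123 and 441 counts. Mlst8, which mTORC1 shares with mTORC2, was at 31.6 and 23.7 CPM. Deptor, which encodes an inhibitor of both complexes (ENSMUSG00000022419, chromosome 15, 55112317 to 55259271, plus strand), had 59 counts without methionine and 21 in complete medium, or 3.01 and 1.43 CPM, and was 2.11-fold higher (1.26 to 3.65). It had the fewest counts of the 42, and its lower bound lies below 1.5-fold.

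Ddit4, which encodes REDD1, a stress-induced protein that activates the TSC complex, had the highest level per length of the 42 genes in both libraries. Ddit4 (ENSMUSG00000020108, chromosome 10, 59949669 to 59951834, minus strand) had 2714 counts without methionine and 3970 in complete medium, or 139 and 270 CPM, and was 1.95-fold lower (1.86 to 2.05). It is a known target of ATF4, HIF1, FOXO and glucocorticoid signals. Of the 5 members known to be induced under stress (Sesn1, Sesn2, Sesn3, Ddit4 and Eif4ebp1), none was higher by 1.5-fold or more and 1, Ddit4, was lower by that much, counts that do not stand apart from the 15.7% and 18.0% of all genes. Their median log2 difference was -0.10.

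All 3 substrate genes among the members had intervals below 1, against 31.5% of all genes. Eif4ebp1, which encodes the translation repressor 4E-BP1 and is a known ATF4 target, had 3186 counts without methionine and 3387 in complete medium, or 163 and 231 CPM, and was 1.42-fold lower (1.35 to 1.49). Eif4ebp2, the member with the most counts, was at 289 and 371 CPM, 1.28-fold lower (1.24 to 1.33). Rps6kb1, which encodes the S6 kinase, was at 85.3 and 100 CPM, 1.17-fold lower (1.09 to 1.26). A processed pseudogene that matches Eif4ebp1 at 93.3% over 357 bases had 0 counts in both libraries. No member was past 1.5-fold in this group, against 18.0% of all genes on the lower side. Genes of other mTORC1 substrates and effectors, which are not members, lay mostly the other way. Of these 18 genes, 10 had intervals above 1, 4 had intervals below 1 and 4 had intervals that held 1. Their median log2 difference was 0.24. The lower values of the 3 member genes thus did not extend to substrates and effectors as a class.

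Per kilobase of annotated exon the members spanned a wide range, from Ddit4 at 78.9 CPM per kb without methionine and 154 in complete medium to Deptor at 0.339 and 0.161. Ddit4, Eif4ebp1 and Eif4ebp2 held the first to the third places in both libraries, and their intervals did not overlap in complete medium. Without methionine the intervals of Ddit4 (76.0 to 81.9 CPM per kb) and Eif4ebp1 (71.5 to 76.7) did overlap. Rraga (42.7 and 43.1 CPM per kb) and Lamtor5 (41.6 and 41.4) followed and could not be ordered by counting error in either library. Within Ragulator, Lamtor5 stood highest, at more than the other 4 in both libraries, and Lamtor3 (10.2 and 8.05 CPM per kb) and Lamtor4 (7.80 and 8.63) were lowest, their intervals overlapping in complete medium. Of the sestrins, Sesn2 was highest per length, at 22.5 and 18.1 CPM per kb, although Sesn3, whose annotated exons are longer, had more counts. Bmt2 was at 6.21 and 5.85 CPM per kb, below Mtor at 10.3 and 10.0 and above Rptor at 4.88 and 4.77. The lengths are those of all annotated exons and may exceed those of the transcripts expressed.

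**Figure D3:**
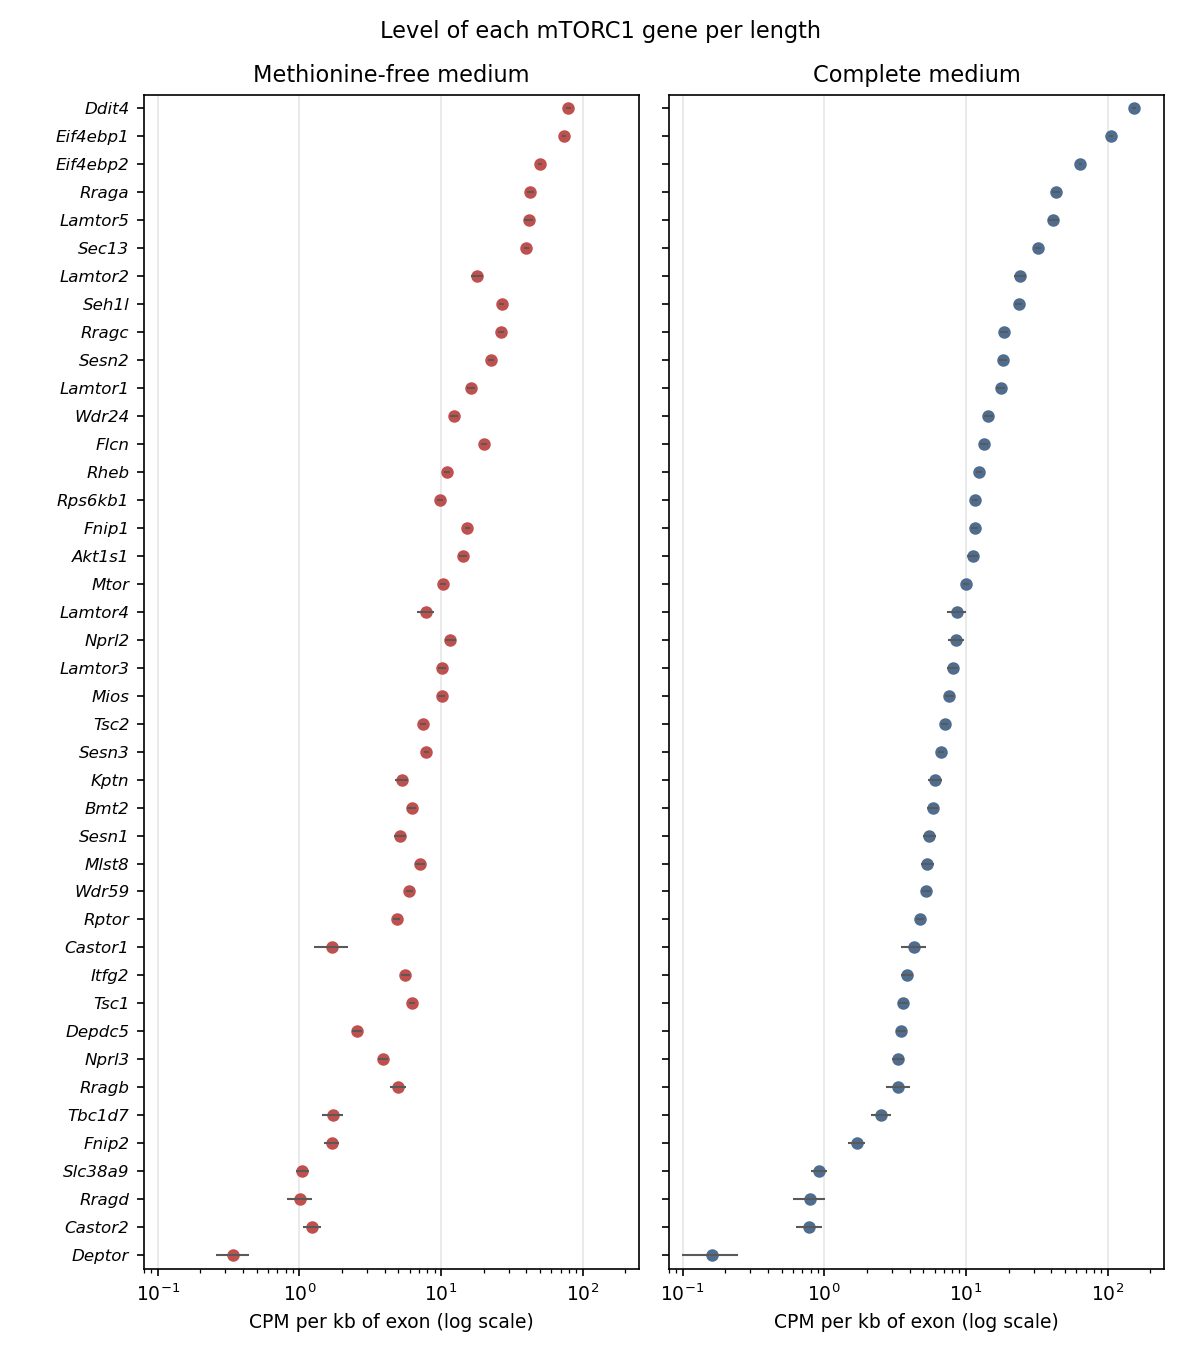
Each point is the level of a member in CPM per kb of annotated exon on a log axis, in methionine-free medium (left panel) and complete medium (right panel), with exact Poisson 95% intervals; genes are ordered by the complete-medium level. Ddit4 is highest in both panels, at 78.9 and 154 CPM per kb, and Deptor lowest, and Castor1 stands left of its neighbours in the methionine-free panel.

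The genes around the 42 differed in both directions. Of 63 further pathway genes listed, 62 were found by symbol and 58 met the count minimum. Of these, 6 were higher and 8 lower by 1.5-fold or more, or 10.3% and 13.8%, both below the 15.7% and 18.0% of all genes, and the median log2 difference was 0.06. In the PI3K-AKT branch, which carries growth factor and antigen receptor signals to mTORC1, Pik3r2, the gene of a PI3K regulatory subunit, was at 14.6 and 36.3 CPM, 2.49-fold lower (2.15 to 2.88). Pik3cd, the leukocyte PI3K catalytic subunit gene, was at 563 and 941 CPM, and Akt1 at 154 and 257 CPM, both 1.67-fold lower. Irs2 was 1.67-fold higher (1.498 to 1.86).

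Of the mTORC2 genes, Rictor, which encodes its defining subunit, was at 127 and 91.9 CPM, 1.38-fold higher (1.29 to 1.47), and Prr5, on 24 and 42 counts, was 2.33-fold lower (1.38 to 4.03). Among the 8 measured genes of AMPK, the energy-sensing kinase, and its activator LKB1, none was past 1.5-fold. Strada, at 26.1 and 37.4 CPM, shares exon bases with Ccdc47 on the same strand and is uncertain, and Prkab2 was at 23.8 and 19.2 CPM. Ulk1, the autophagy kinase gene, was at 45.2 and 43.1 CPM. Eef2k, which encodes the elongation factor 2 kinase that mTORC1 signalling restrains, was at 27.5 and 59.5 CPM, 2.17-fold lower (1.94 to 2.42). Eif4ebp3 had 18 and 2 counts, a ratio of 6.75 (1.62 to 59.9), and Grb10 16 and 50 counts. Klhl22, which encodes a ubiquitin ligase adapter known in human cells to bring about degradation of DEPDC5, was at 12.1 and 26.4 CPM, 2.18-fold lower (1.85 to 2.57), and Wac at 210 and 133 CPM, 1.58-fold higher (1.49 to 1.66).

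Genes whose transcription mTORC1 is known to promote lay mostly below 1. Of 21 such genes, drawn up with earlier results of these libraries known and so no independent evidence of direction, 11 were lower without methionine by 1.5-fold or more, or 52.4% against 18.0% of all genes, and none was higher by that much. Their median log2 difference was -0.65. Sterol genes held 5 of the 11, glycolysis genes 4 and the ATF4 branch 2. Hmgcs1, of cholesterol synthesis, was at 50.1 and 152 CPM, 3.04-fold lower (2.82 to 3.28). Phgdh and Asns, of serine and asparagine synthesis and with the largest differences of the ATF4 branch, were 1.83-fold and 1.60-fold lower. Pgk1 and Ldha, of glycolysis, were 1.85-fold and 1.59-fold lower, although processed pseudogenes could take reads of both. Other signals also act on these genes, and all 14 proliferation genes were lower in the same library. The activity of mTORC1 was not measured.

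**Figure D4:**
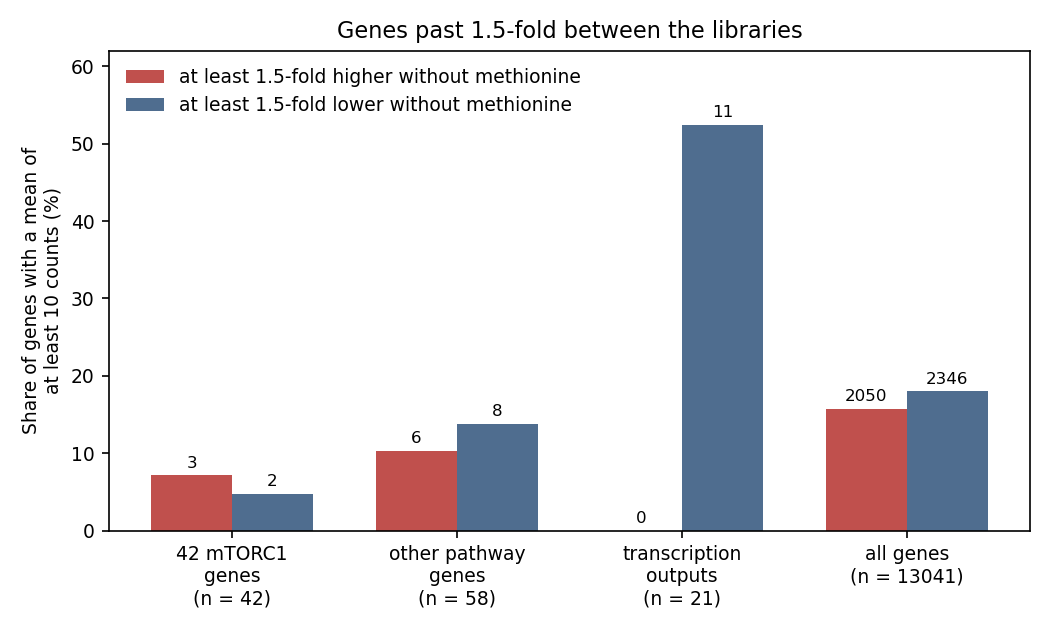
Bars give the share of genes past 1.5-fold upward (red, left) and downward (blue, right) without methionine, in percent of the genes that met the count minimum, with the number of genes above each bar. The 42 mTORC1 genes are at 7.14% and 4.76%, and the transcription outputs at 0 and 52.4%, beside 15.7% and 18.0% of all genes.

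**Figure D5:**
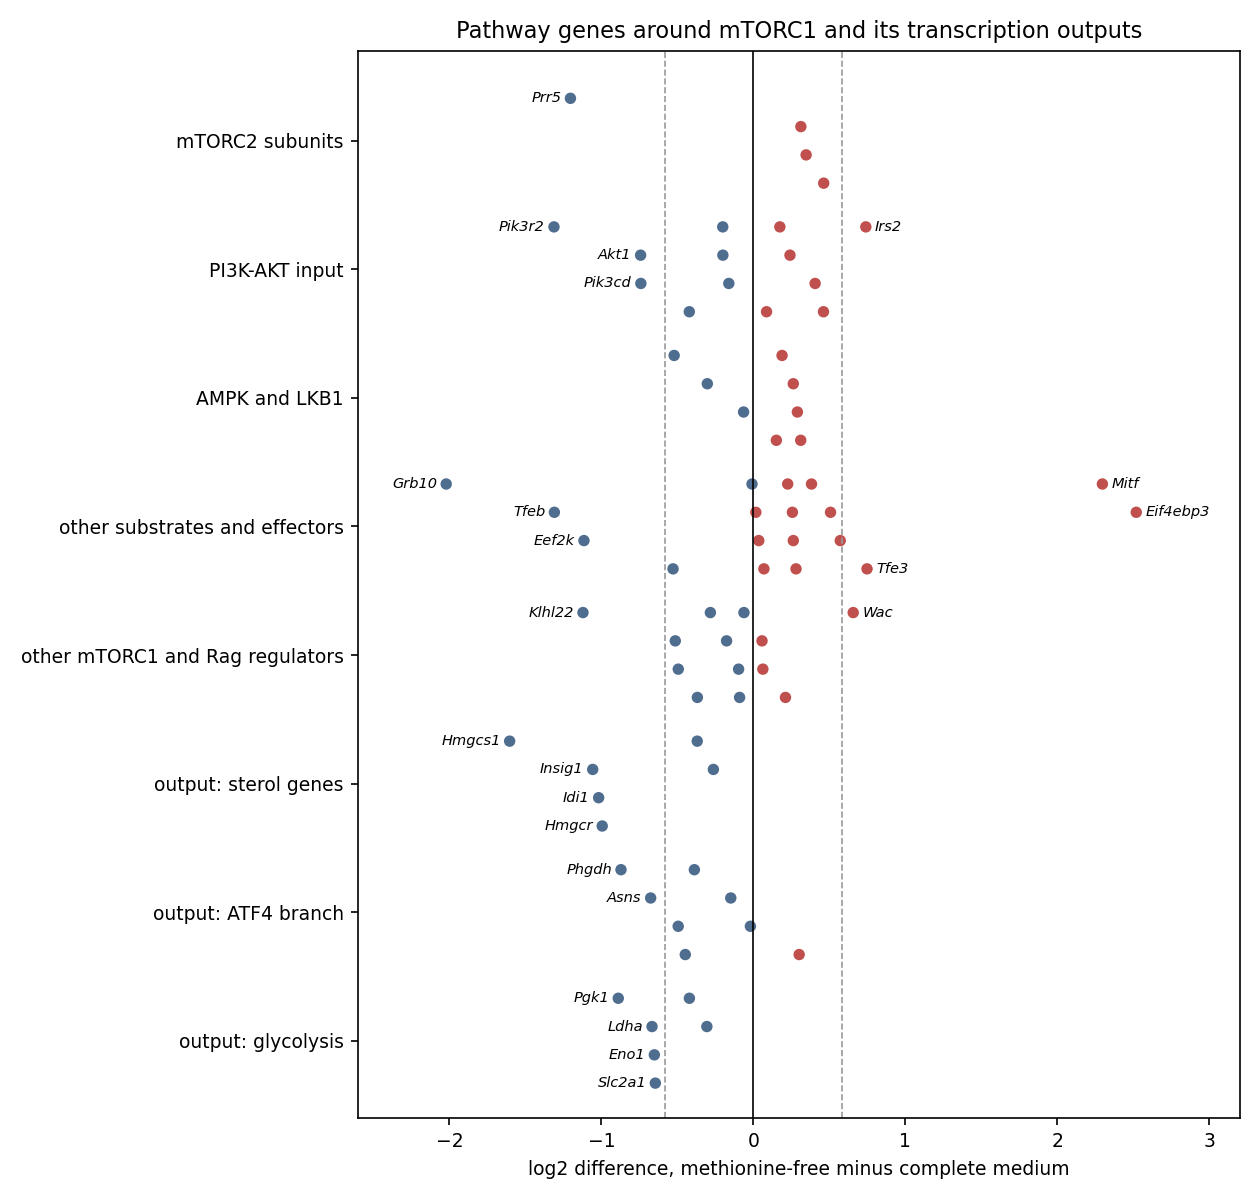
Each point is the log2 difference of a gene, methionine-free minus complete medium, by role; dashed lines mark 1.5-fold and genes past it are named, and a few genes not reported here are not drawn. In the 3 output rows, Slc3a2 of the ATF4 branch is the only point above 0, at 0.30, and each row above them has points on both sides. Height within a row only separates the points.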

How the data were processed

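Bulk RNA-seq was available for 2 libraries of splenic CD8+ T cells, 1 without methionine and 1 in complete medium. Per the labels' protocols, a whole-RNA kit or an mRNA kit was used, and the kit of each library is not named. Of 7 entries of non-polyadenylated small RNAs examined, the small nuclear RNA Rn7sk had 115 counts without methionine and 11 in complete medium. Terc had 4 and 2 counts, and the other 5 entries had 0 in both libraries. The deposited table holds raw counts per Ensembl gene, not scaled by the authors. The build was mm10 according to the submitters' processing notes. The sources used here do not give the aligner, counter, annotation or use of strand. Columns were matched to samples by title and description. The columns carry the numbers 2 and 1, whose meaning is not given.

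Symbols, coordinates and exon lengths came from GENCODE M21 (GRCm38, the assembly of mm10), which held 54495 of 54532 identifiers. Counts were scaled by TMM (edgeR 4.0.16, R 4.3.3), with factors of 0.997 without methionine and 1.003 in complete medium. The log2 difference, which decides whether a gene is past 1.5-fold or 2-fold, used a prior count of 0.5. Printed folds are ratios without it, and their 95% intervals are exact conditional binomial (Clopper-Pearson) intervals (scipy 1.17.1). They cover counting error only, since each medium has 1 library. No molecular identifiers are named, so duplicate reads of the same molecule, if present, would make the intervals too narrow. Near-identical copies were sought with BLAST 2.17.0 among GENCODE transcripts, at 90% identity over at least 300 bases. The steps were tested on simulated counts.

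The members and all lists were chosen with earlier results of these data known. Genes described in full were those past 1.5-fold, the member of each role with the largest difference, and Bmt2, Mtor, Rptor and Castor1. Of each role of the pathway list, the 2 with the largest difference were named, with Tfeb, Tfe3 and Ulk1, and of each output branch 2. Kics2 was not found by symbol and has no value, and a few other genes of these lists, which enter the counts, are not reported here. Pik3cd, Akt1, Irs2, Eef2k, Grb10, Atf4, Ddit3 and Slc3a2 were named after their values were seen. Alternatives changed the scaling, the minimum count, the prior count and the fold.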

Additional observations from a re-analysis of the deposited data

How the results depend on the processing

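Scaling by library totals, by DESeq2 size factors or, an alternative added after seeing the data, by TMM over protein-coding genes left 3 members at least 1.5-fold higher and 2 lower, and moved the median of all genes by less than 0.1 on the log2 scale. The same held with a prior count of 2 and with no minimum count. The largest shift of any member's log2 difference over the scalings and the prior count of 2 was 0.04, for Deptor. The minimum count does not enter that difference. Fnip2 and Lamtor5, both near 0, changed sign with the scaling. With a minimum mean of 100 counts, 39 members remained, with 2 higher and 1 lower, because Deptor, Castor1 and Rragd had fewer. At 2-fold, 1 member was higher (Deptor) and 1 lower (Castor1), and of the further pathway genes 3 were higher and 6 lower. No paired analysis was possible because each medium has 1 library, and for the same reason no library could be left out. Depth limits the readings of Castor1, Castor2, Deptor, Rragd, Prr5, Mitf, Grb10 and Eif4ebp3, whose intervals are wide.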
